A study of Dirofilaria immitis with 5 samples.

Results

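Adult female Dirofilaria immitis, the dog heartworm, were kept alive in culture, and the small RNAs in their concentrated medium were sequenced as 1 library. The report sets this library against 4 others prepared from the media of adult males, microfilariae and the third-stage and fourth-stage larvae, again as 1 library each. All 5 groups were live whole worms, with no treatment, strain or age named in the sources used here. The deposited table lists 1228 distinct sequences of 18 to 25 nt, of which 173 carry the name of a known nematode miRNA and 1055 are candidates whose names start with PC. The rows described are the 135 with 10 or more raw reads in females, 60 of them named and 75 candidates, and no other property chose them. Just inside that limit lay 1 row at 10 reads, 1 at 10.3 and 2 at 11, and just outside lay 1 at 9.5, 3 at 9 and 8 at 8.

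A miRNA is a short RNA that guides an Argonaute protein to messenger RNAs, mainly through its seed, the bases from position 2 to position 8. Worms release miRNAs into culture medium, and such RNAs have been found free, in vesicles and in host blood. An adult female filarial worm carries a long uterus filled with eggs, embryos and microfilariae, and it sheds the microfilariae alive. Whether shed microfilariae or embryos were removed from the female medium is not given in the sources used here. RNA released by females and RNA released by their offspring cannot be told apart in this library.

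The sequences printed first begin with the 6 bases TCACCG, the start of miR-36a, a miRNA whose family, miR-35 with miR-36, is needed by Caenorhabditis elegans embryos. They are shown because most reads with that start came from the female library. All sequences run 5′ to 3′ as the deposited table gives them, with T for U, and capitals mark the seed.
bma-miR-36a_R+1_1ss19GA: tCACCGGGtgcacattcgatc
bma-miR-36a_1ss19GA: tCACCGGGtgcacattcgat
PC-3p-11865_72: tCACCGGGtgcacattcgatt
PC-3p-4128_281: tCACCGGAcgaaacattcctt
PC-3p-3551_334: tCACCGGAtacattattcctta
bma-miR-36b_R-4_1ss9GT: tCACCGGAtacattattc
PC-3p-3757_313: tCACCGTTaatactgttcga
PC-3p-6380_163: tCACCGAAagcattgttctaa

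The next sequences are the other rows on which the results turn. They are miR-45 with miR-279a, which has the same seed, then miR-72, the 3 leading miR-100 forms, and abundant or female-restricted rows of the table.
bma-miR-45_R-1: cGACTAGAggaacattcagca
asu-miR-279a-3p_1ss9TA: tGACTAGAaccatactcagct
bma-miR-72_R-2: aGGCAAGAtgttggcatagct
bma-miR-100a_R+1: aACCCGTAgtttcgaacatgtgt
bma-miR-100b_R+1: aACCCGTAgatccgaacttgtgt
bma-miR-100d_R+1: tACCCGTAgctccgaatatgtgt
crm-mir-239b-p5_1ss6AC: tGCACCAAagctctgact
bma-miR-5866: tTACCATGttgatcgatctcca
PC-3p-521_2331: gAGGATCTatgagagggcaagtct
PC-3p-903_1424: cGGATGGActcccaggccc
PC-3p-20309_35: aATGCACTgggtgtaggttgggact
PC-5p-17812_42: gGCACCCAgcgcatttgtcgagatc

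The female library held 376070 reads in the table, against 727018 for microfilariae, 34448 for the third-stage and 326187 for the fourth-stage larvae, and 32983 for males. Values for the libraries are given in that order, as reads and as shares, where a share is a row's percentage of its column sum. The table took 12.2% of the mappable female reads and between 0.870% and 20.2% of those of the others. The ranges in parentheses are 95% intervals from exact binomial calculations. They allow for counting error alone and take each read as a separate draw. Reads copied by PCR and not tagged individually are not separate molecules, so the ranges may be too narrow. With 1 library per group there is no spread between replicates and no test, so each difference is a difference between these libraries. By a limit of 3 counts, a row at 0 reads could still hold up to 0.000413% of the microfilarial, 0.00871% of the third-stage, 0.000920% of the fourth-stage and 0.00910% of the male reads. A female row needs 32.8 reads to exceed that limit in third-stage larvae and 34.2 reads in males, so for scarcer rows a count of 0 in those 2 libraries shows no difference.

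The female library was led by miR-100 and miR-36 forms and stood above every other library for a long list of candidates. Most of these candidates were not read in every library. Of the 60 named rows, 20 (33.3%) had a female share above all 4 others, and these held 24.8% of the female reads. Of the 75 candidates, 48 (64%) did, with 11.2% of the reads. Over all rows with 10 or more reads in any library, the share above all 4 others in females was 35.8%, or 24.7% of named rows and 44% of candidates. A row that lacks reads in another library cannot have a female share below all 4 others. Only 57 members, 36 named and 21 candidates, had a read in every library. Of these, 7 of the 36 named rows and 4 of the 21 candidates had a female share above all 4 others. The higher percentage of candidates was thus not seen among these 57 members. No member had a female share below all 4 others, although some did under other scalings given below. Among all 190 rows with 10 or more reads somewhere, 62 had a read in every library. Of the 190, only bma-miR-153 had a female share below all 4 others, at 3, 33, 8, 3 and 1 reads. That is 0.526% of these rows and 1.23% of the named ones. The remaining 40 named rows and 27 candidates lay between. The 68 rows above all others held 36% of the female reads, 15.0% of the microfilarial, 3.27% of the third-stage, 1.07% of the fourth-stage and 5.95% of the male reads.

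Many of these rows are scarce, and depth limits what their order shows. For 29 of the 68, 9 named and 20 candidates, the interval of the ratio lay above equal shares against each of the 4 others, and for the other 39, with 1183 female reads in all, it did not. Over all rows with 10 or more reads in any library, the first group is 15.3%. In a separate count, 29 rows, 9 named and 20 candidates (15.3% of the same rows), were at least 2-fold above the highest of the others, counting 0 reads as 3. Shares also depend on what else a library holds. The ratios were therefore scaled in 3 other ways, by TMM factors, by mappable reads, and by the library size parameter the authors divided their own counts by. Under all 4 scalings, 16 rows had intervals above equal shares against every library, 5 named and 11 candidates, with 16.9% of the female reads. The named rows were the 2 miR-36a forms, miR-239b-p5, miR-45 and miR-5866.

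**Figure D1:**
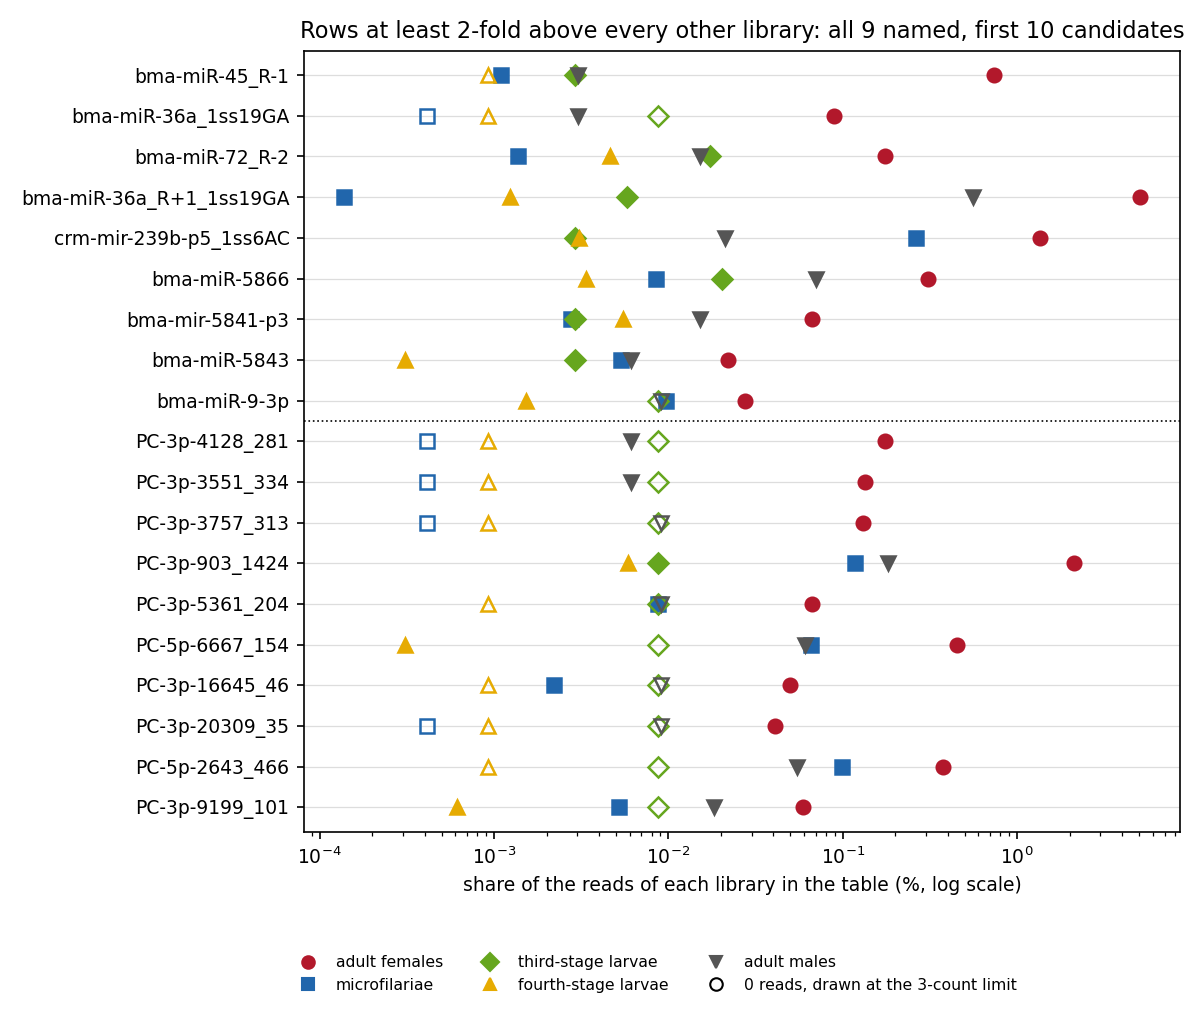
Share of each library's table reads, in percent on a log axis, for the 9 named rows and the first 10 candidates at least 2-fold higher in females than in any other library. Each symbol is 1 library, and an open symbol marks 0 reads, drawn at the limit of 3 counts. The miR-36a forms, miR-45 and several candidates sit far to the right in females. Male miR-36a, at 0.555% for its main form, is well above the male limit.

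miR-36a was abundant in females and scarce elsewhere. bma-miR-36a_R+1_1ss19GA had 19034 reads in females and 1, 2, 4 and 183 in the others, which is 5.06% (4.99 to 5.13) of the female reads against 0.000138%, 0.00581%, 0.00123% and 0.555%. It was outnumbered in females only by 3 miR-100 forms, nearly missing from the larval and microfilarial media and present at a lower share in males. The female share was 9.12 times (7.89 to 10.6) the male share. Of the form that is shorter by its last base, bma-miR-36a_1ss19GA, 334 reads came from females, 1 from males and none from the rest. In a medium, fewer releasing cells or worms and less RNA released by each cannot be told apart.

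Several other sequences with the same start were also read mainly in females. The table holds 11 rows beginning TCACCG, of which 8 are members, kept for their female reads. For 5 of the 8 the interval lay above equal shares against each other library, and for bma-miR-36b_R-4_1ss9GT, PC-3p-11865_72 and PC-3p-6380_163 it did not. cel-miR-39-3p, a row with this start that is no member, had 0 female and 7 third-stage reads. Together the 11 rows had 21130 reads in females, against 30, 9, 5 and 190, which is 5.62% against 0.00413%, 0.0261%, 0.00153% and 0.576%. The candidate PC-3p-4128_281 had 654 female reads, 2 male reads and none elsewhere, and its share was 28.7 times (7.91 to 237.3) the male share. PC-3p-3551_334, which contains the whole of bma-miR-36b_R-4_1ss9GT and 4 bases more, had 502 female reads, 2 male reads and none elsewhere. PC-3p-3757_313 was read 491 times in females and not at all in the other libraries, so its share was at least 14.4-fold higher than in any of them. The miR-36b row itself had 10 female reads and none elsewhere, too few to place it against males or third-stage larvae. PC-3p-6380_163 had 75, 29, 0, 1 and 2 reads. Its ratio to males, the highest of the others, was 3.29 (0.879 to 27.7), which includes equal shares. Its female share was 5.00 times (3.22 to 7.96) the microfilarial share, and its bound against third-stage larvae no longer exceeded equal shares under TMM or the authors' parameter. The seeds split these rows into CACCGGG (19392 reads over 3 members), CACCGGA (1166 over 3 members) and other seeds.

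miR-45 was the second named miRNA nearly restricted to females. bma-miR-45_R-1 had 2763 reads in females and 8, 1, 0 and 1 in the others, which is 0.735% (0.708 to 0.763) of the female reads. The other libraries each had fewer than 10 reads of it. Against microfilariae the ratio of shares was 668 (338 to 1548), and against males, with 1 read, it was 242 (43.5 to 9575). asu-miR-279a-3p_1ss9TA, which shares its seed and belongs to a family that acts in Drosophila neurons, gave another picture. It had 7916, 1870, 62, 117 and 2052 reads, and its share was highest in males at 6.22%, against 2.10% in females. The female share was 0.338 (0.322 to 0.355) of the male share, a direction that turned when reads were scaled by mappable reads.

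miR-72, whose family includes the miR-31 of other animals, also had its highest share in females, at a lower level. bma-miR-72_R-2 had 657 reads in females and 10, 6, 15 and 5 in the others, that is 0.175% against 0.00138% to 0.0174%. The female share was 10.03 times (4.58 to 27.4) that of third-stage larvae, the highest of the others, and 127 times (68.6 to 266) that of microfilariae. With the authors' parameter the log2 ratio to third-stage larvae fell to 0.95, and its interval included equal shares. The table lists 1 inexact match to the dog genome for this row, and its part in the result was not tested. A form extended by 4 bases, prd-miR-72-5p_R+3, had 14 female reads and none elsewhere, under the depth needed for a comparison with males or third-stage larvae.

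crm-mir-239b-p5_1ss6AC was more abundant than miR-45 or miR-72. It had 5083 reads in females and 1920, 1, 10 and 7 in the others, or 1.35% against 0.264%, 0.0029%, 0.00307% and 0.0212%. Females were 5.12 times (4.86 to 5.40) above microfilariae, the nearest library. It is 18 nt long and is listed with 9 inexact matches in the dog genome, whose part was not tested. Its name sets it with miR-239, a miRNA linked to stress and lifespan in C. elegans, yet bma-miR-239_R-1 did not follow it, at 0.062%, 0.092%, 0.0261%, 0.00828% and 0.0879%. The seeds of these rows, GCACCAA and TTGTACT, differ. With the dog-matched rows left out, the summed miR-238/miR-239 list was no longer highest in females.

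Less studied named miRNAs made up most of the rest. bma-miR-5866 had 1156, 62, 7, 11 and 23 reads, and its female share of 0.307% was 4.41 times (2.92 to 6.98) the male share. For bma-mir-5841-p3 the reads were 250, 20, 1, 18 and 5, and the female share was 4.39 times (1.85 to 13.6) the male share. With the authors' parameter its log2 ratio to the highest other, then fourth-stage larvae, was 0.33, and the interval included equal shares. This row has 1 inexact match listed in the dog genome, with its part not tested. bma-miR-5843 had only 83, 39, 1, 1 and 2 reads, and although its female share was 3.64 times the male share, the interval (0.976 to 30.6) included equal shares. bma-miR-9-3p, of a family that acts in nerve cell development in flies and vertebrates, had 103, 70, 0, 5 and 0 reads and was 2.84 times (2.08 to 3.91) above microfilariae. Against third-stage larvae it is bounded by 0 reads, and under TMM and the authors' parameter that bound no longer exceeded equal shares. A more abundant row of the family, hco-miR-9, had 131, 255, 108, 11 and 25 reads. Its share was 0.0348% in females and 0.314% in third-stage larvae. The row has 3 exact matches listed in the dog genome, with their part not tested. The summed miR-9/miR-79 list was also lower in females, at 0.0673% against 0.354% in third-stage larvae. Per mappable read, hco-miR-9 and the list both turned higher in females than in third-stage larvae. With the dog-matched rows left out, that list was highest in females.

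The miR-100 family, a relative of the miR-51 family that C. elegans embryos need, supplied most female reads. Its rows summed to 63.2% of the female reads, against 70.9%, 7.48%, 2.79% and 31.3%. The paralogs were not ordered alike. bma-miR-100b_R+1 had 63437, 75080, 1027, 2538 and 1022 reads and was the only one of the 4 main forms above all others, at 16.9% against 10.3%, 2.98%, 0.778% and 3.10%. It stood 1.63 times (1.62 to 1.65) above microfilariae, but per mappable read the log2 ratio was -0.03. bma-miR-100d_R+1 reached 22.4% in females and 31.8% in microfilariae, so the female share was 0.704 (0.699 to 0.710) of theirs. bma-miR-100a_R+1, at 21.9% and 24.3%, had a ratio of 0.902 (0.894 to 0.909), which turned above 1 with the authors' parameter. bma-miR-100c_R+1_1ss12CT had the lowest ratio of the 4, at 0.443 (0.431 to 0.454), from shares of 1.97% and 4.46%.

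**Figure D2:**
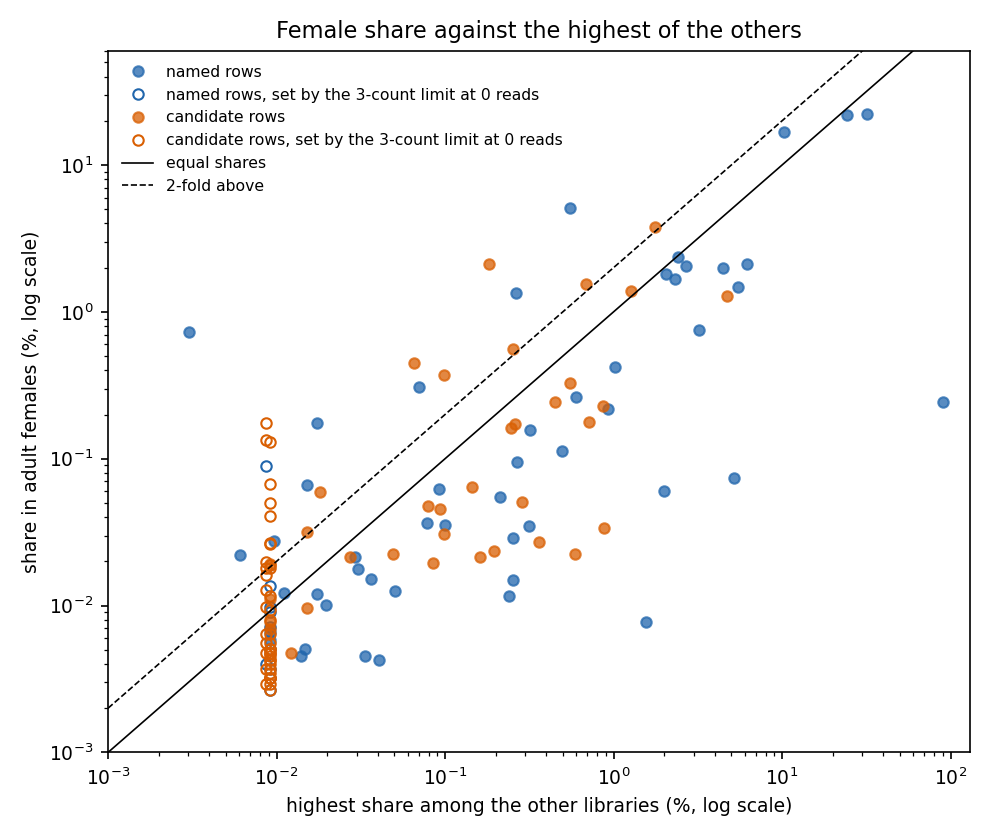
Each point is 1 of the 135 rows, with its share in the highest of the other 4 libraries on the x axis and its female share on the y axis, both in percent on log axes and with 0 reads set at 3 counts. Rows over the solid diagonal have a higher share in females than in every other library, and the open points under it, set by the 3-count limit, cannot be placed. miR-36a and miR-45 lie far above the line, miR-100d, miR-100a and miR-100b lie close to it at the top right, and lin-4 lies far below.

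The candidates are predicted from reads, and whether each is a miRNA or a piece of another RNA was not checked here. Candidates took 14.6% of the female reads, and between 1.70% and 11.7% of those of the other libraries. The most abundant was PC-3p-521_2331, with 14143, 12879, 7, 108 and 113 reads. At 3.76% of the female reads it was 2.12 times (2.07 to 2.17) above microfilariae. PC-3p-903_1424 had 7995, 858, 3, 19 and 60 reads and was 11.7 times (9.07 to 15.3) above males and 18 times (16.8 to 19.4) above microfilariae. It has 1 inexact match listed in the dog genome. PC-5p-263_4142, which has 8 such matches, had 5806, 5000, 22, 54 and 157 reads and was 2.24 times above microfilariae. The part of the dog matches in these results was not tested.

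A second tier of candidates ranged from 188 to 2105 female reads. PC-5p-6667_154 had 1699, 475, 0, 1 and 20 reads and was 6.91 times above microfilariae, the highest of the others. Of PC-5p-2643_466 there were 1406, 716, 0, 0 and 18 reads, a share 3.80 times the microfilarial share. PC-5p-1987_638 had 2105, 1834, 0, 33 and 12 reads and was 2.22 times above microfilariae. All 3 had their next highest share in microfilariae. Lower down, PC-3p-5361_204 (252 and 63 reads) and PC-3p-16645_46 (188 and 16 reads) were read in females and microfilariae only. PC-3p-9199_101 had 223, 38, 0, 2 and 6 reads and was 3.26 times above males. PC-3p-183_5819, with 5256 and 9192 reads in females and microfilariae, was only 1.11 times (1.07 to 1.14) above microfilariae and fell below them under TMM and per mappable read.

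Of the members, 14 were read in females and nowhere else, 2 named and 12 candidates. That is 10.4% of the 135 members, and 14 of the 190 rows with 10 or more reads in any library. By the same count in their own rows, microfilariae had 4 of 144, males 2 of 53 and the larval libraries none. The members were kept for their female reads. The 12 candidates had 913 reads together. Only 3 of the 14 had 50 or more reads. They were PC-3p-3757_313 of the TCACCG group, PC-3p-20309_35 with 154 reads and PC-5p-17812_42 with 98. Their female shares were at least 14.4-fold, 4.50-fold and 2.87-fold higher than in any other library. For the last 2 the bound against third-stage larvae no longer exceeded equal shares under the authors' parameter, and for PC-5p-17812_42 under TMM as well. For the other 11 of the 14 the interval against at least 1 library included equal shares.

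Rows that differ from another row by length or by a base or so are not independent members. There were 15 such pairs among the members, 13 in which 1 sequence lies within the other and 2 with the same start and 1 or 2 differences, and 27 members took part. In 4 cases a candidate was paired with a named row. PC-3p-11865_72, with 24 female reads and none elsewhere, differs from bma-miR-36a_R+1_1ss19GA by 1 base. PC-5p-700_1781 differs from bma-miR-100c_R+1_1ss12CT by 1 base, and PC-3p-2685_459 is bma-miR-2c_1ss20TC with 2 bases more. The fourth is PC-3p-3551_334 with miR-36b. Each of the 4 candidates stood where its named partner did, PC-3p-2685_459 and PC-5p-700_1781 between the other libraries and the remaining 2 with observed shares above all of them.

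The members that lay between included the timing miRNAs. bma-lin-4, the regulator of early larval timing in C. elegans, had 922 reads in females, and 31, 24320, 292336 and 11792 in the others. It held 0.245% of the female reads, 57.5 times (40.2 to 85.1) the share in microfilariae and far below the rest. The share was 366 times (343 to 390) higher in fourth-stage larvae, 288 times (270 to 308) in third-stage larvae and 146 times (136 to 156) in males, and these directions held under each scaling. asu-let-7-5p, needed by C. elegans larvae to become adult, had 278, 175, 1795, 4684 and 80 reads. Females were 3.07 times (2.53 to 3.73) above microfilariae and below the other 3, although against males the direction turned per mappable read. This row has 8 matches listed in the dog genome, 3 of them exact, and their part was not tested.

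bma-miR-5364 resembled lin-4 in being scarce in microfilariae, with 425, 4, 171, 1083 and 149 reads. Its female share was 205 times (79.6 to 757) the microfilarial share, and 0.228 (0.190 to 0.273) of the third-stage share. It was not picked by the rule for named rows, and was chosen after its values were seen. Per mappable read it turned higher in females than in third-stage larvae and in males.

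Another set was higher in microfilariae than in females. cel-miR-34-5p_R+1_1ss1AT, from a stress-response family, had 226, 14489, 9, 23 and 40 reads, and its microfilarial share was 33.2 times (29.1 to 38) the female share. For bma-miR-57, expressed in the posterior of C. elegans, the shares were 0.750%, 3.23%, 0.197%, 0.737% and 0.415%, and microfilariae were 4.31 times (4.15 to 4.49) above females. asu-miR-71-5p_R-2, which promotes long life in C. elegans, had 5586, 39766, 42, 298 and 518 reads and was 3.68 times (3.58 to 3.79) above females there. cel-miR-1-3p_R-1, the muscle miRNA, had 989, 4330, 20, 60 and 0 reads. Its share in microfilariae was 2.26 times (2.11 to 2.43) the female share, and its absence in males put females at least 28.9-fold above them. The form with 3 bases more, cbr-miR-1_R+2, went the other way between the sexes, with 17 female and 11 male reads and a male share 7.38 times (3.12 to 16.7) the female share. That direction turned per mappable read. The shorter row has 2 exact matches in the dog genome, with their part not tested. The microfilarial direction of these 4 held under each scaling.

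Several abundant rows differed little between females and their nearest libraries. bma-bantam_R+1, related to the Drosophila growth regulator bantam, had 8891, 17521, 106, 708 and 388 reads, and its ratio to microfilariae was 0.981 (0.956 to 1.01), an interval that includes equal shares. bma-miR-228, found in glia in C. elegans, had 6773, 13774, 113, 578 and 676 reads, with ratios of 0.951 (0.923 to 0.979) to microfilariae and 0.879 (0.812 to 0.952) to males. bma-miR-92_R+2 had 6280, 11626, 789, 7553 and 560 reads. Its shares spanned 1.60% to 2.32% over the 5 libraries, a narrow range for a row of this level. Each of these 3 turned under some scaling, bantam against microfilariae with the authors' parameter, miR-228 against microfilariae or males, and miR-92 against each library.

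The nerve-linked rows were split. asu-miR-87b-3p had 359, 1956, 3, 2 and 50 reads and was highest in microfilariae. bma-miR-124_R-2, a neuronal miRNA across animals, had 44, 192, 83, 5 and 2 reads, and its third-stage share was 20.6 times (14.1 to 30.4) the female share. For bma-miR-7_R+1, with 109, 260, 87, 24 and 6 reads, the third-stage share was 8.71 times (6.5 to 11.7) the female share, which turned per mappable read. miR-124 is listed with 3 exact matches and miR-7 with 4 inexact matches in the dog genome, whose part was not tested.

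Set against microfilariae alone, females had 74 of 135 rows at least 2-fold higher and 23 at least 2-fold lower, with 38 within 2-fold. Over the 174 rows with 10 or more reads on either side, 74 (42.5%) were higher and 49 (28.2%) lower. The members were kept for their female reads, which leaves out rows found mainly in microfilariae. With those rows included, 22 named rows were higher and 26 lower of 74, and 52 candidates were higher and 23 lower of 100. Among the members alone, 16 named rows and 7 candidates were lower. TMM scaling shifted every log2 ratio by -0.65 and gave 59 higher and 36 lower, and scaling by mappable reads shifted them by -0.73 and gave 56 and 37.

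Against males, the members stood on either side of equal shares. There were 47 members at least 2-fold higher in females, 23 lower and 32 within 2-fold, and another 33 could not be placed because males had 0 reads of them. Over the 139 rows with 10 or more reads on either side, 47 (33.8%) were higher and 27 (19.4%) lower. Of the rows named here, miR-36a, miR-45, miR-72, miR-239b-p5 and miR-5866 were higher in females under each scaling, and lin-4 was lower under each. cel-mir-5592-1-p3_1ss8TC, chosen after its values were seen, had 29 female and 513 male reads, a male share 202 times (139 to 304) the female share. It has 1 inexact match in the dog genome listed, with its part not tested. bma-miR-2c_1ss20TC, related to the miR-2 family that acts on cell death genes in Drosophila, had 824 and 305 reads and was 4.22 times (3.69 to 4.82) higher in males, a direction that turned per mappable read. Scaled by mappable reads, 126 rows were higher and 4 lower, a shift of 3.60 in log2, and under TMM 64 and 15.

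Against the larvae the counts changed with the scaling. Compared with third-stage larvae, 71 of the 135 members had a female share 2-fold or more higher and 8 were lower, and 43 could not be placed at 0 larval reads. Over the 141 rows with 10 or more reads on either side, 71 (50.4%) were higher and 14 (9.93%) lower. Compared with fourth-stage larvae, 54 named members and 71 candidates were higher and 5 members were lower. Over the 147 rows with 10 or more reads on either side, 85% were higher and 17 (11.6%) lower. lin-4 alone took 70.6% and 89.6% of the reads by which shares are taken in these 2 libraries. Scaling by TMM factors shifted the log2 ratios by -1.93 and -2.33 and left 31 higher and 21 lower against third-stage larvae, and 68 and 13 against fourth-stage larvae. With the authors' parameter, the shifts were -2.37 and -3.26 and the counts 24 and 28, then 42 and 22. Per mappable read they were 129 and 2, then 128 and 3.

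**Figure D3:**
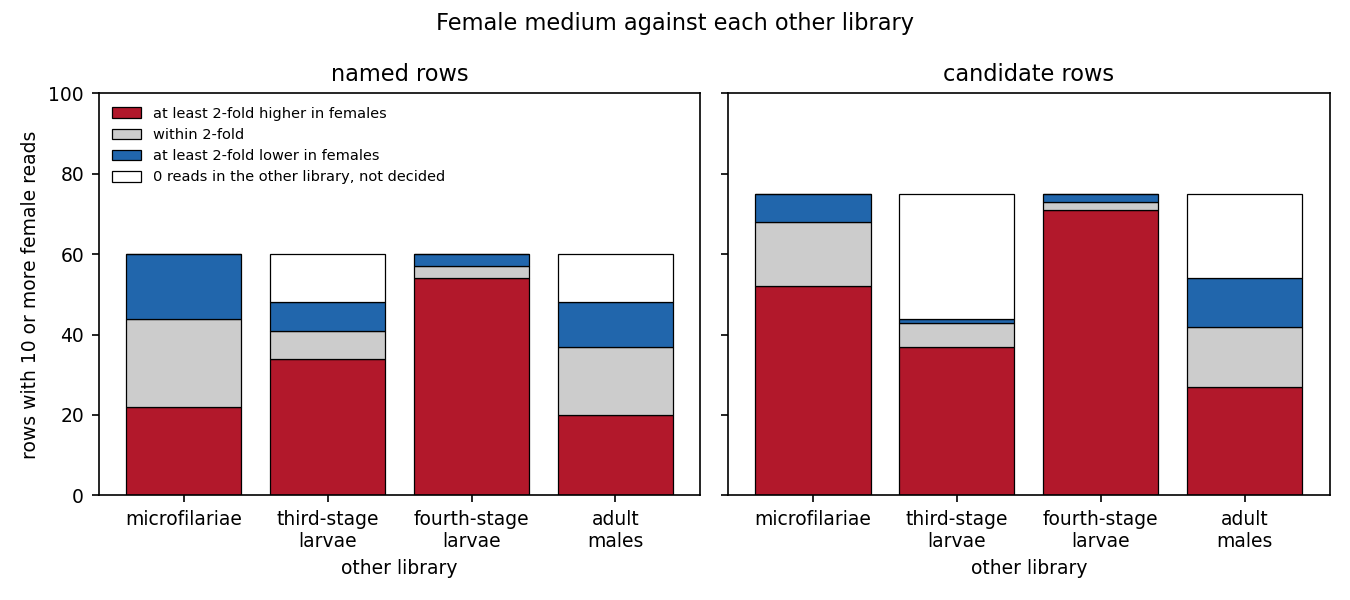
Number of the 135 rows, named and candidate apart, whose female share was at least 2-fold higher, at least 2-fold lower or within 2-fold of each other library, or could not be placed because that library had 0 reads. The bar against fourth-stage larvae is almost all higher, and those against third-stage larvae and males hold 43 and 33 rows that could not be placed.

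Summed by family, 3 of 16 lists of miRNA families and tissue miRNAs were highest in females. They were miR-35/miR-36 at 5.15% (0.000138%, 0.0261%, 0.00123% and 0.561% in the others), miR-238/miR-239 at 1.41% (0.356%, 0.0290%, 0.0113% and 0.109%), and miR-72/miR-31 at 0.180% (0.00138%, 0.0174%, 0.00491% and 0.0212%). Their directions against each library held under all 4 scalings, but without the dog-matched rows the last 2 were no longer highest. What then remained of miR-72/miR-31 was scarce. It was prd-miR-72-5p_R+3 with 14 female reads, and cel-miR-72-5p_R+1 with 7 female, 1 fourth-stage and 2 male reads. Of the 5316 female reads of miR-238/miR-239, 5083 were of crm-mir-239b-p5_1ss6AC. That row is listed by its name and does not share the seed of bma-miR-239_R-1. The lin-4/miR-125 list took 0.247% of the female reads, above microfilariae alone, under each scaling. Muscle miRNAs took 0.268% of the female reads, under the 0.606% of microfilariae and over the 0.0334% of males. The list of intestinal or epidermal miRNAs took 3.14%, between 6.48% in microfilariae and 2.78% in males. Of its 11806 female reads, 6773 were of bma-miR-228, described above for glia, and 2821 of bma-miR-57. Its sum is therefore not a value for those tissues. The miR-279/miR-45 list, at 2.84%, was second to the male 6.23%, which turned per mappable read.

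**Figure D4:**
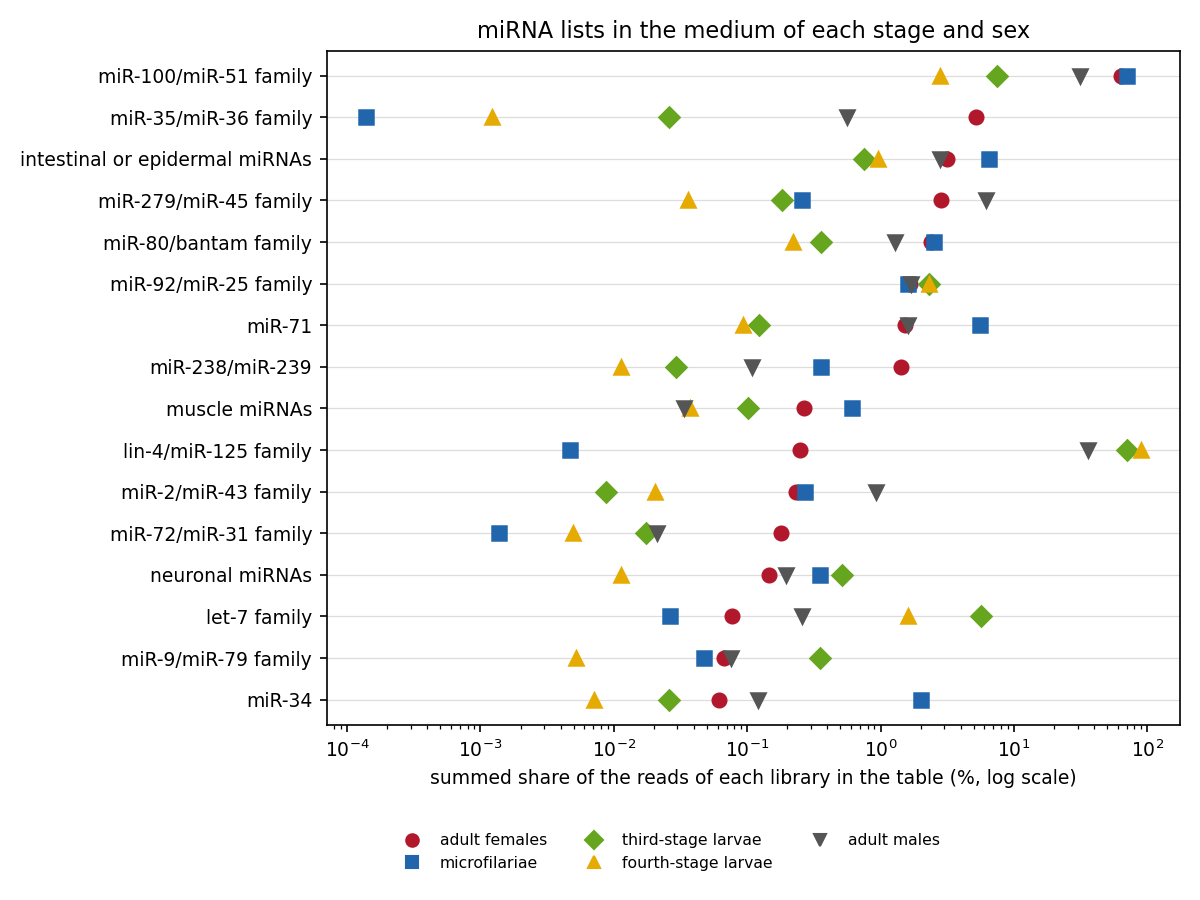
Summed share of each library's table reads, in percent on a log axis, for 16 lists of miRNA families and tissue miRNAs, with 1 symbol per library. Females lead in miR-35/miR-36, miR-72/miR-31 and miR-238/miR-239, and stand well below both larval libraries and males for lin-4/miR-125.

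Named members and candidates differed in their first base and length. A T as first base, common in miRNAs, was found in 34 of 60 named members (56.7%) and 18 of 75 candidates (24%). Among candidates above all 4 libraries it was found in 16 of 48 (33.3%), and among those between, in 2 of 27 (7.41%). Of these 16, 5 belong to the TCACCG group, and they share their start. Named members went the other way, with a T in 9 of 20 (45%) above all 4 and in 25 of 40 (62.5%) between. Lengths of 21 to 24 nt were held by 80% of the named members and 62.7% of the candidates. For named members this was 60% of those above and 90% of those between, and for candidates 62.5% and 63.0%. The 135 members had 110 distinct seeds, and 15 seeds were shared by 2 or more members. Of the 75 candidates, 9 shared a seed with a named member. Dog genome matches are listed for 22 members, 11 named and 11 candidates, and 10 of them have an exact match. Only 1 of the rows above all others does, the candidate PC-5p-39570_14 with 68 reads.

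Standing above the other libraries was not particular to females. By the same count in each library's own rows with 10 or more reads, the share above all others was 50.4% in females (68 of 135), 42.4% in microfilariae, 41.5% in males, 29.7% among third-stage and 7.94% among fourth-stage larvae. A minimum share of 0.0303%, which is 10 reads in the male library, was then set for every library. The depths and the limits at 0 reads still differ under it. At that minimum females had 23 of 60 (38.3%), microfilariae 23 of 48, third-stage larvae 11 of 34, fourth-stage larvae 4 of 25 and males 22 of 53. The female rows were then 8 of 32 named and 15 of 28 candidates.

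Some sequences found elsewhere were scarce in the female library, and a few were absent from it. Of the 190 rows with 10 or more reads in some library, 55 had fewer than 10 in females, 21 named and 34 candidates, and 10 of them had none. This was not particular to females. The minimum of 10 reads was reached by 135 female and 144 microfilarial rows, but by only 53 male, 63 fourth-stage and 37 third-stage rows. Rows under it were therefore more numerous in the male and larval libraries than in the female library. The highest share of these 55 rows was in microfilariae for 30, in third-stage larvae for 13, in males for 10 and in fourth-stage larvae for 2. Some of the places in the shallow third-stage and male libraries rest on very few reads. bma-miR-283_R-2, for example, is counted for males at 1 male read against 11 microfilarial reads. The largest of the 55 was PC-3p-389_2939, with 3219 and 2060 reads in third-stage and fourth-stage larvae and none in females. It is listed with 7 inexact matches in the dog genome, and their part was not tested. Females had 1 read of prd-let-7-5p_1ss12GA and 6 of cel-let-7-5p_R+1, against 77 and 88 in third-stage larvae. bma-miR-283_R-2 and the last 3 rows were chosen after their values were seen.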

How the data were processed

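Small RNA from the media of 5 groups, 1 library each, was analysed from 1 table. Per the file headers, only reads of 18 to 25 nt remained after adapter trimming, so longer small RNAs were not measured. The submitters' processing notes name Bowtie and bcl2fastq 1.8.4. The genome build, the release of the miRNA database and the alignment settings are not given in these sources. The deposited raw columns hold estimated counts with no normalization by the authors (48 fractional values in females), which were rounded to whole numbers after the minimum of 10 was applied. The deposited signal columns equal the raw count divided by the authors' library size parameter for all 1228 rows in each library, within a relative 1e-06, and entered only as an alternative scaling. A raw 0 is written there as 0.001. A further 1 line of the table was not used here. Name suffixes such as R+1 are not explained in the file.

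Shares were taken of each column's sum. Clopper-Pearson intervals for shares and conditional binomial intervals for ratios, both exact and at 95%, were computed with scipy 1.17.1 in Python 3.11.15, and checked on simulated data. TMM factors came from edgeR 4.0.16, with no count test. Folds against 0 reads are lower bounds against 3 counts per library. Alternatives were TMM, mappable reads, the authors' parameter, minimums of 1 and 50 reads, and leaving out dog-matched rows. Added after the data were seen were a minimum share equal to 10 reads in the shallowest library and the same alternatives for the interval counts. Rows named were the 12 most abundant, the 10 named and 10 candidate rows farthest above all others (and below), those with 50 or more reads found only in females, and members of 16 lists, whose rows were taken by name. Other rows named in the text, such as bma-miR-153 and PC-5p-39570_14, were chosen after their values were seen. The members and lists were chosen with earlier results of these data known. Sequences are those of the table.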

Additional observations from a re-analysis of the deposited data

How the results depend on the processing

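Leaving out a replicate could not be done with 1 library per group. No paired analysis was possible because each group has 1 library. Under TMM, 1 named row and 3 candidates had female shares below all others, 12 candidates had an interval above equal shares, and the rows 2-fold lower in females numbered 36 against microfilariae and 15 against males, with 31 higher and 21 lower against third-stage and 68 and 13 against fourth-stage larvae. Per mappable read, intervals lay above equal shares for 16 named rows and 47 candidates, with 37 rows lower against microfilariae, 129 higher and 2 lower against third-stage larvae, 3 lower against fourth-stage larvae, and 126 higher and 4 lower against males. With the authors' parameter, 6 named rows and 5 candidates lay below all others, 11 candidates had such intervals, and the higher and lower counts were 24 and 28 against third-stage and 42 and 22 against fourth-stage larvae. A minimum of 1 read gave 877 members, 52 named rows and 583 candidates above all others, 1 named row below, 204 higher and 61 lower against microfilariae, and 36, 27 and 74 lower against third-stage larvae, fourth-stage larvae and males. A minimum of 50 reads gave 83 members, 11 named rows and 23 candidates above, 44 higher against microfilariae and 75 against fourth-stage larvae. Without the dog-matched rows, 3 rows were lower against third-stage larvae. With a minimum share of 0.0303%, which leaves the depths unequal, 8 named rows and 15 candidates were above. Each of these follows from the scaling, the minimum or the rows kept. The log2 ratio to the highest other library turned for bma-miR-100b_R+1 per mappable read (-0.025), bma-miR-2a under TMM (-1.44) and per mappable read (-0.60), bma-mir-100a-p3 with the authors' parameter (-2.20), and, without dog-matched rows, for the miR-72/miR-31 (-0.75) and miR-238/miR-239 (-0.50) lists. In these values 0 reads count as 3. For bma-miR-2a under TMM, bma-mir-100a-p3 and the miR-72/miR-31 list, the highest other was thereby third-stage larvae, with 0 reads. Those values are set by the limit and are not ratios of observed shares. Observed female shares there were also below those of another library, but by less. Depth limits rows under 34.2 female reads, which cannot exceed the limit of 3 counts in males.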
